A study of Mus musculus with 4 samples.

Results

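The sodium pump genes described here are Atp1b1, Atp1b2 and Atp1b3, which encode the β subunits of the sodium pump, and Fxyd1, Fxyd6 and Fxyd7, which encode small membrane proteins that bind it. They were taken by symbol, and these 6 of the 32285 genes in the matrices were each found once. The sodium pump (Na,K-ATPase) exports sodium from a cell and imports potassium at the cost of ATP. Its α subunit carries out transport, its β subunit is a glycoprotein needed to fold the α subunit and bring it to the surface, and a FXYD protein, where present, tunes the affinity for ions. In the retina the pump restores the gradients that the dark current of rods and the spikes of ganglion cells run down, and pigment epithelium holds it on the membrane facing the rods.

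Posterior eyes of C57BL/6J mice were frozen fresh, sectioned and placed on 4 Visium capture frames, each a grid of barcoded spots that capture the RNA of the tissue above them. All 4 frames, numbered as biological replicates, share the treatment label Naive+AAV2/2. The age of the mice is not given in the sources used here. The design text names AAV2/2 vectors carrying CMV-Wif1-HA-IRES-GFP or CMV-Wif1-HA, a CMV-IRES-GFP control vector, and control retinas beside retinas at 2 weeks and 4 weeks. The CMV promoter is not limited to 1 cell type. The labels do not say which section had which treatment, so conditions were not compared, and each value below may pool naive and injected tissue. The frames held 1056 to 1243 spots and 674029 to 1066633 unique molecular identifiers (UMIs, each counting 1 captured RNA molecule), with a median of 430 to 630.5 UMIs per spot. The grids share their barcode set, and 1271 of 2458 distinct barcodes occurred in more than 1 frame. The molecule is labelled nuclear RNA, although sections on such a grid hold whole tissue.

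Spots were placed in regions by clustering 148 marker genes, none of which is one of the 6 genes. A region is a mixture of cells that is named after its leading markers. Of 4603 spots, 51.2% were placed in a named region and 42.6% had too few marker UMIs. The pigmented region held 425 spots, the optic nerve region 78, the muscle region 122, the ganglion region 225, the bipolar region 211 and the rod region 636. The optic nerve region was found in 3 frames, with 0 spots in frame 1, and its sums were shallow, at 4548, 18034 and 17888 UMIs in frames 2 to 4. The labelled tissue is retina. In the regions named after them, 14 of 14 rod markers, 15 of 15 bipolar markers and 14 of 14 ganglion markers were detected. Regions were drawn from these markers, so this is no separate check. Detection alone did not set regions apart: the rod region also held 15 of 15 bipolar markers, and the ganglion region 14 of 14 rod markers. Rod markers were also counted in other regions. The rod marker sum was 42748 to 67234 CPM (UMIs scaled to a total of 1000000) in the muscle region, 12625 to 33237 CPM in the pigmented region, 10254 to 25820 CPM in the bipolar region and 1442 to 2572 CPM in the optic nerve region, against 68191 to 83224 CPM in the rod region. All 14 rod markers were detected in each of these regions but the optic nerve region, which held 12. In a spot, fewer cells of a type and less RNA per cell cannot be told apart.

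Atp1b1 spans chromosome 1 from 164437099 to 164458355, Atp1b2 chromosome 11 from 69599728 to 69605978 and Atp1b3 chromosome 9 from 96332655 to 96364431 (GRCm38.p6, the mm10 build). Fxyd6 lies on chromosome 9 from 45369470 to 45396159. Fxyd7 (31042515 to 31051454) and Fxyd1 (31051678 to 31055873) are neighbours on chromosome 7, with 223 bases between their annotated spans. All 6 are protein-coding genes. The end of Atp1b1 shares 202 bases with the end of Nme7 (chromosome 1, 164307524 to 164437300), which is annotated on the opposite strand. Whether counting used the strand is not given in the sources used here, so UMIs from these 202 bases may have been given to either gene.

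Promoters of 4 of the 6 genes were in the RefSeq table used (build GRCm38.p6, 250 bases before to 50 bases after an annotated start, 5′ to 3′ on the gene's strand). The 3 printed here belong to the genes that mark ganglion, pigmented and optic nerve spots below. Capitals mark 3 kinds of motif, each searched on both strands. The GC box, bound by Sp1 and its relatives, was taken as GGGCGG. The CCAAT box, bound by NF-Y, was taken by the letters of its name. The TATA box, bound by the TATA-binding protein, was taken as either TATAAA or, in its other searched form, TATATA. Matches of different motifs may overlap. The sequences lie at chr1:164458306-164458605 (minus strand), chr9:96364382-96364681 (minus strand) and chr7:31054804-31055103 (minus strand).
Atp1b1: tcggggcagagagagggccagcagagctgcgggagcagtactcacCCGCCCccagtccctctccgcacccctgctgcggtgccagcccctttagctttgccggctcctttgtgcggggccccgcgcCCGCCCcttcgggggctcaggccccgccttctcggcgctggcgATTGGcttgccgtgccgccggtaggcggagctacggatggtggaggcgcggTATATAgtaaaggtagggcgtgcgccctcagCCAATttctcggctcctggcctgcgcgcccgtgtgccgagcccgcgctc
Atp1b3: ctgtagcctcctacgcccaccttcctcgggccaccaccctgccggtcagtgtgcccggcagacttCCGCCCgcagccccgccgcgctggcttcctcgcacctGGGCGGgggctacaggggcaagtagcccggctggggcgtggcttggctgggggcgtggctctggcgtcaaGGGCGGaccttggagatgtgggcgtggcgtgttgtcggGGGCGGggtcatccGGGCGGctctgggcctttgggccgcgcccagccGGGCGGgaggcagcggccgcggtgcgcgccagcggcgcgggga
Fxyd1: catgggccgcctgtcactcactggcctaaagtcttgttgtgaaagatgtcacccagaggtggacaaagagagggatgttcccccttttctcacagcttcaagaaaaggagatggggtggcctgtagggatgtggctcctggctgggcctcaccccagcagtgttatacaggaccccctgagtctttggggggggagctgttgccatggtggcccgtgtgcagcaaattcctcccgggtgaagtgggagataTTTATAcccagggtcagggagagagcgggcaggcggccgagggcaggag
The Atp1b1 window held 2 GC boxes, 2 CCAAT boxes and 1 TATA box, and the Atp1b3 window held 6 GC boxes. The Fxyd1 window held 1 match to the TATA box and none to the other motifs. That match read TTTATA, which is TATAAA on the other strand, and lay within the last 50 bases, after the annotated start. Of 32851 promoters of this length in the table, 35.7% held a GC box, 37.4% a CCAAT box and 17.1% a TATA box.

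Over whole frames, Atp1b2 and Atp1b1 were the most captured of the 6 genes, at rank 117 and rank 168 among all genes by UMIs. Atp1b2, also known as an adhesion molecule on glia, had 1105, 984, 1194 and 944 CPM in frames 1 to 4. Atp1b1, the most widespread β subunit, had 691, 833, 736 and 858 CPM. Atp1b3, the third β subunit, had 71.4, 51.6, 90.3 and 37.1 CPM. All 3 β subunits were therefore found in every frame, Atp1b3 with 224 UMIs in total against 2737 of Atp1b1 and 3733 of Atp1b2. Fxyd7, known from brain, had 170, 164, 190 and 211 CPM, the highest of the 3 FXYD genes in every frame. Fxyd1, or phospholemman, known from heart and muscle, had 96.0, 97.5, 90.3 and 71.2 CPM. Fxyd6, or phosphohippolin, known from brain, had 42.4, 30.0, 39.5 and 29.7 CPM, with 125 UMIs in total. UMIs count captured transcript ends and were not scaled by gene length, so a share between genes is used here to compare regions, not to rank proteins.

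Among the 6 regions, Atp1b1 was highest in ganglion spots and Atp1b2 was lowest there. Atp1b1 had 2214, 2606, 3059 and 2389 CPM in the ganglion region of frames 1 to 4, against 129.8, 104.9, 191 and 132 CPM in the rod region. No frame overlapped between the regions. The log2 fold of the ganglion over the rod region was 4.00 ± 0.24 (SD of the 4 frames' folds), higher in 4 of 4 frames (adjusted p = 4.42e-22 by edgeR's quasi-likelihood fit, as for all edgeR values here, after Benjamini-Hochberg adjustment). Atp1b2 had 367, 286, 361 and 261 CPM in the ganglion region, against 1793, 1846, 2063 and 1448 CPM in the rod region. The groups did not overlap, and every ganglion value lay below every rod value. Its fitted log2 fold was -2.68 ± 0.16 (frames' own folds -2.21, -2.59, -2.44 and -2.37), lower in 4 of 4 frames (edgeR adjusted p = 3.88e-16). Atp1b3 had 20.9 to 54.6 CPM in the ganglion region and 18.5 to 46.2 CPM in the rod region, and its log2 fold of 0.17 ± 0.46 did not pass (edgeR adjusted p = 0.849). Of the 5 genes tested, 3 passed in this comparison, where 42.9% of 2959 tested genes did. Fxyd6 had too few UMIs for the filter on low counts.

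**Figure D1:**
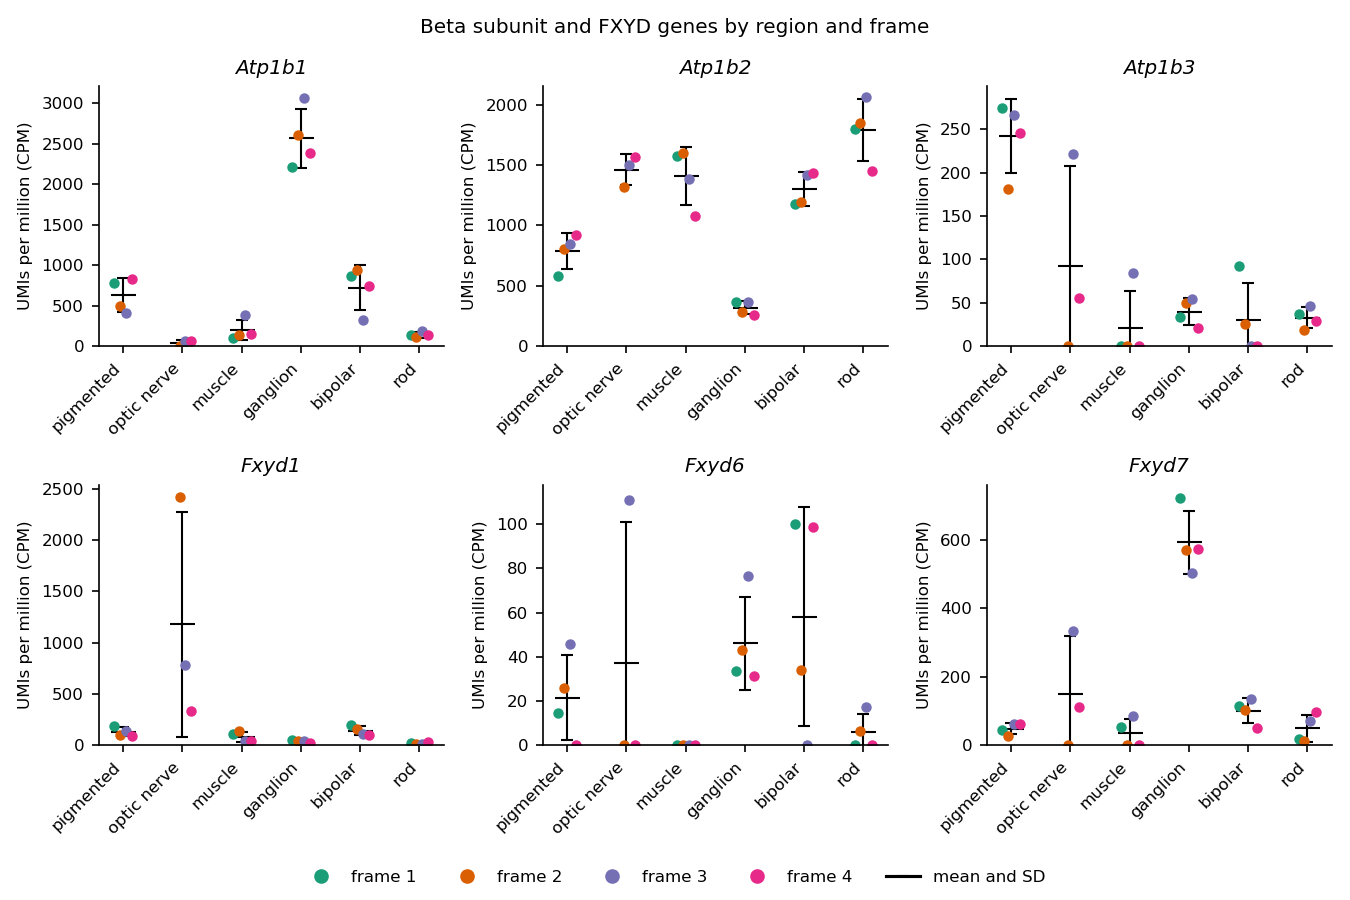
Levels of the 6 genes in CPM (vertical axes, each with its own scale) in 6 regions (horizontal axes), with 1 point per frame and a bar for the mean and SD over frames. Atp1b1 and Fxyd7 are highest in ganglion spots in every frame, Atp1b3 averages 242 CPM in pigmented spots, and Fxyd1 averages 1177 CPM in the 3 optic nerve frames with a wide spread.

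Bipolar spots lay between ganglion and rod spots for both major β subunits. Atp1b1 had 869, 941, 319.8 and 740 CPM in the bipolar region of frames 1 to 4, each above the 104.9 to 191 CPM of the rod region and below the 2214 to 3059 CPM of the ganglion region. Its log2 fold was 2.13 ± 0.98 over the rod region (edgeR adjusted p = 2.89e-08). The ganglion region stood 1.86 ± 0.85 above the bipolar region on the log2 scale (edgeR adjusted p = 9.44e-08). Frame 3, with 31 bipolar spots, gave the lowest bipolar value. Atp1b2 had 1176, 1189, 1412 and 1431 CPM in the bipolar region, below the rod region in 4 of 4 frames. Frame 4 was close to a tie, with 1448 CPM in the rod region and 29 UMIs in 15 bipolar spots. The fitted Atp1b2 log2 fold was -0.77 ± 0.29 against the rod region (frames' own folds -0.60, -0.62, -0.54 and -0.016, edgeR adjusted p = 0.00844). This call was lost without frame 1, 2 or 3 in turn, with adjusted p-values of 0.0979, 0.130 and 0.0844, and when spots were placed by their own markers (adjusted p = 0.0566) or needed 50 marker UMIs (adjusted p = 0.0739). Against the bipolar region, the ganglion region was lower in Atp1b2 by 1.91 ± 0.30 on the log2 scale (log2 fold -1.91, edgeR adjusted p = 3.25e-08). Of the 5 genes tested, 3 passed for bipolar against rod spots, where 26% of all tested genes did, and 4 passed for ganglion against bipolar spots, where 12.8% did.

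The share of β subunit UMIs that came from Atp1b1 separated the retinal regions without overlap. It was 84.7 to 89.5% in the ganglion region, 18.5 to 43.7% in the bipolar region and 5.33 to 8.29% in the rod region. Pooled over frames it was 87.9% in ganglion spots (exact 95% binomial interval 85.9 to 89.7%), 39.1% in bipolar spots (35.3 to 43.0%) and 7.10% in rod spots (5.74 to 8.66%). These intervals cover counting error only. The ganglion share exceeded the rod share by 80.6 ± 2.2 percentage points in 4 of 4 frames (two-sided exact sign-flip permutation test, p = 0.125, the smallest that 4 frames allow, and 0.188 after Benjamini-Hochberg adjustment over 6 comparisons). With 4 frames no share can pass 0.05 by this test. Atp1b2 took 10.7% of β subunit UMIs in ganglion spots, 58.5% in bipolar spots and 91.2% in rod spots, and Atp1b3 took 1.39%, 2.35% and 1.67%.

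**Figure D2:**
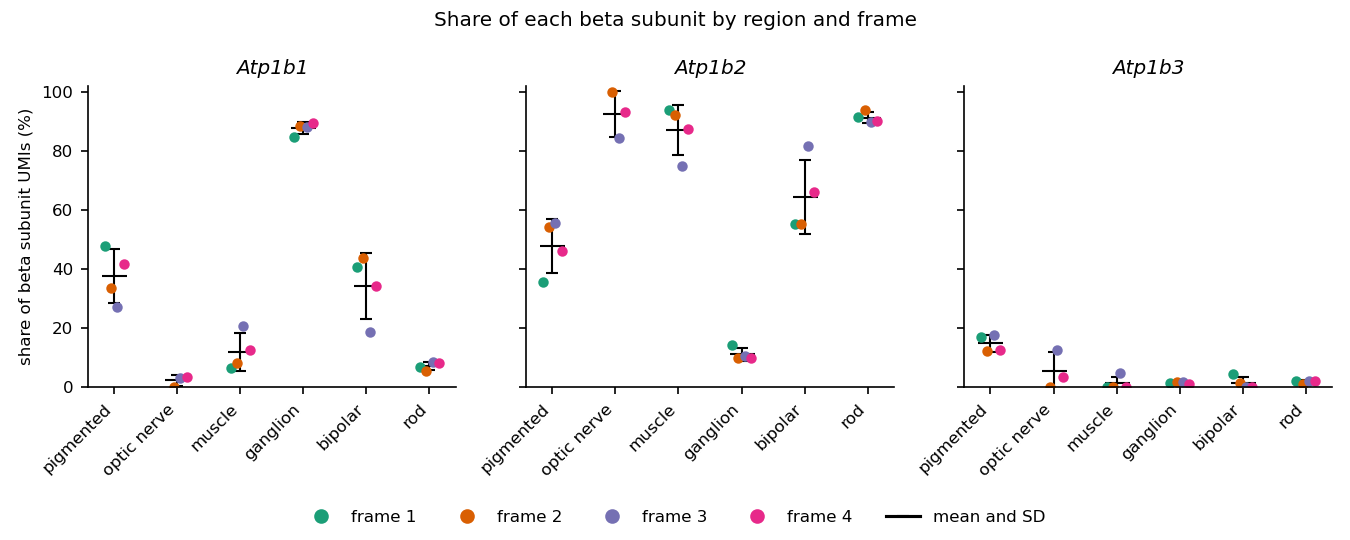
Share of β subunit UMIs (%, vertical axis, 0 to 100) taken by each of 3 genes in 6 regions, with 1 point per frame and a bar for the mean and SD. Atp1b1 takes 84.7 to 89.5% in ganglion spots and 5.33 to 8.29% in rod spots, and Atp1b2 mirrors it.

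Single spots ordered by their own mix of markers showed both genes changing over in steps. Spots with at least 20 rod and ganglion marker UMIs were grouped by the ganglion share of those UMIs, which uses neither gene. In the 661 spots with a ganglion share under 1%, Atp1b1 made up 6.76% of β subunit UMIs. From there the bins of 1 to 5%, 5 to 20%, 20 to 50%, 50 to 80% and 80 to 100% held 11.2%, 23.2%, 58.0%, 79.0% and 88.5%. Atp1b2 stood at 1834, 1705, 1172, 814, 462 and 262 CPM over the same bins, and Atp1b1 at 135, 219, 373, 1221, 2033 and 2220 CPM. Fxyd7 stood at 29.1, 39.1, 48.5, 179, 299.9 and 599 CPM. The Atp1b1 share was 3.66 to 9.50% in the first bin and 85.1 to 90.2% in the last bin across frames. The bin of 20 to 50% held 7 spots in frame 1 and 7 in frame 4, and that of 50 to 80% held 18 in frame 4. Spots are not replicates, and no test was made.

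**Figure D3:**
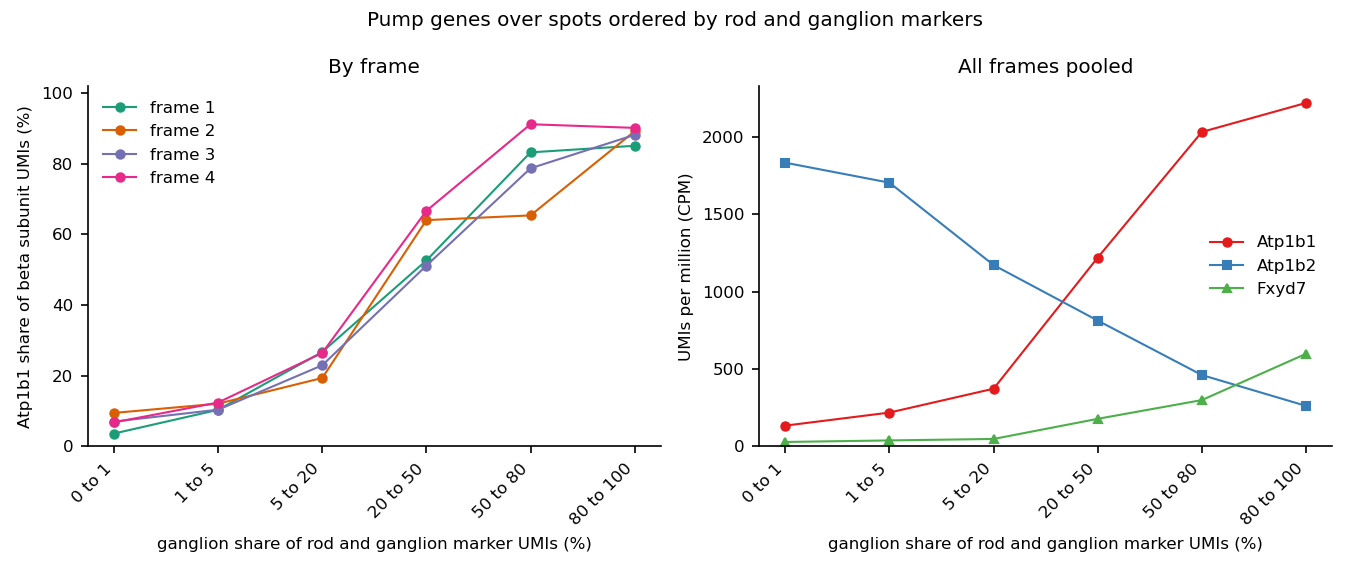
Spots binned by the ganglion share of rod and ganglion marker UMIs (horizontal axes, %). Left, the Atp1b1 share of β subunit UMIs (%) with 1 line per frame; right, levels of Atp1b1, Atp1b2 and Fxyd7 in CPM over all frames pooled, where Atp1b2 is lower and the other genes are higher in each later bin.

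Pigmented spots were set apart by Atp1b3. It had 274, 181, 267 and 246 CPM in the pigmented region of frames 1 to 4, against 18.5 to 46.2 CPM in the rod region, 0 to 92.2 CPM in the bipolar region and 20.9 to 54.6 CPM in the ganglion region. The lowest pigmented value lay above the highest value of each neural region. Its log2 fold over the mean of the 3 neural regions was 2.69 ± 0.42, higher in 4 of 4 frames (edgeR adjusted p = 1.74e-08). Atp1b3 made up 14.8% of β subunit UMIs in pigmented spots (exact binomial interval 12.1 to 17.9%), with 12.2 to 17.5% across frames. Atp1b1 had 780, 498, 412 and 831 CPM in the pigmented region, and its log2 fold of -0.01 ± 0.44 did not pass (edgeR adjusted p = 0.997). Atp1b2 had 578, 801, 846 and 923 CPM there, with a log2 fold of -0.09 ± 0.34 that did not pass (edgeR adjusted p = 0.818). In all, 3 of the 5 genes tested passed, against 21.4% of all tested genes.

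A pair of clusters made up the pigmented region. One, of 158 spots, had Trpm1, Mlana and Dct, genes of pigment cells, at its head, and the other, of 267 spots, had Slc6a20a and the visual cycle genes Lrat, Rpe65 and Rdh5. The first, called the melanin cluster here, also had the smooth muscle and connective tissue genes Myh11, Ogn and Col3a1 among its 10 leading markers. Atp1b3 came mainly from the melanin cluster. It had 299.6, 362, 546 and 540 CPM in the melanin cluster, against 209, 45.3, 14.5 and 0 CPM in the visual cycle cluster. Every frame was higher in the melanin cluster, with 81 against 9 UMIs, and the clusters did not overlap. With the visual cycle cluster alone as the pigmented region Atp1b3 averaged 67.1 CPM, with spots placed by their own markers 114 CPM and at a cluster resolution of 1 it averaged 32.5 CPM. Under these 3 drawings it had too few counts to be tested, and the call could not be checked. The melanin cluster took 27.1% of its β subunit UMIs from Atp1b3, 43.1% from Atp1b1 and 29.8% from Atp1b2. In the visual cycle cluster these were 2.92%, 26.9% and 70.1%. Atp1b2 averaged 538 ± 228 CPM in the melanin cluster and 1066 ± 129 CPM in the visual cycle cluster (SD, n = 4 frames). The rod marker sum moved with it, at 6152 to 13161 CPM in the melanin cluster and 29539 to 50065 CPM in the visual cycle cluster, and its part in the Atp1b2 level was not tested. Markers of fibrous tissue summed to 1603 to 2708 CPM in the pigmented region (10 of 11 detected), against 142 to 420.4 CPM in the rod region (9 of 11), 266 to 642 CPM in the bipolar region (9 of 11) and 198 to 321 CPM in the ganglion region (8 of 11), and their part in the Atp1b3 level was not tested. Clusters were drawn on the same spots, so no test was made between them.

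**Figure D4:**
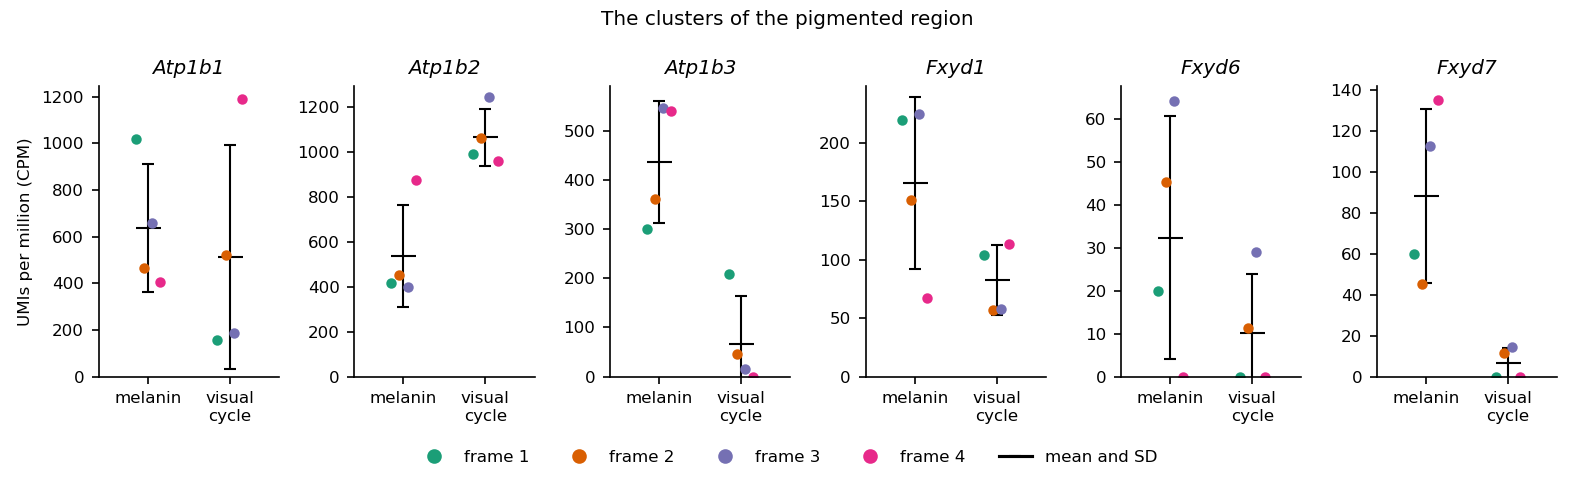
Levels of the 6 genes in CPM (vertical axes, each with its own scale) in the melanin cluster and the visual cycle cluster of the pigmented region, with 1 point per frame and a bar for the mean and SD. Atp1b3 is higher in the melanin cluster in each of 4 frames.

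Optic nerve spots, named for the myelin genes Cldn11 and Mobp, held few Atp1b1 UMIs. Atp1b1 had 0, 1 and 1 UMIs in frames 2 to 4 of the optic nerve region, or 0, 55.5 and 55.9 CPM. Against 1412 UMIs in the neural regions pooled, the ratio was 0.0474 (95% counting interval 0.00574 to 0.172), and the fitted log2 fold was -3.96 (edgeR adjusted p = 5.42e-06). The size depended on how spots were placed: by their own markers Atp1b1 averaged 201 CPM in optic nerve spots, with a log2 fold of -1.40 (edgeR adjusted p = 0.0394), and without frame 2 the fold was -3.33. Atp1b2 supplied 89.7% of β subunit UMIs there (exact binomial interval 79.9 to 95.8%, 61 of 68 UMIs). Its levels of 1319, 1497 and 1565 CPM overlapped the rod and bipolar ranges, and its log2 fold of 0.38 ± 0.20 over the neural mean did not pass (edgeR adjusted p = 0.308). DESeq2 called it, with a log2 fold of 0.81 (DESeq2 adjusted p = 0.00506). Atp1b3 had 0, 4 and 1 UMIs. In these shallow sums the median log2 fold of all tested genes was -1.06 with TMM scaling and -0.59 with DESeq2 size factors, so changes read against that median. Of all UMIs there, the 14 optic nerve markers took 114776 to 228125 CPM, which lowers the CPM of other genes.

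Muscle spots gave no settled direction for Atp1b2. The region joined a cluster of 55 spots with muscle marker folds up to 924 and a cluster of 67 spots, led by Mylpf with a fold of 12.2, that also held the rod gene Rp1 among its leading markers. Atp1b2 had 1570, 1597, 1386 and 1074 CPM over the whole region, with a log2 fold of 0.68 ± 0.24 over the neural mean (edgeR adjusted p = 0.0269). With the first cluster alone the sign turned, to a log2 fold of -1.60 (edgeR adjusted p = 0.00406). The call was also lost without each frame in turn, with adjusted p-values of 0.0672 to 0.220. Atp1b2 averaged 362 ± 311 CPM in the first cluster, where it had 14 UMIs, and 1936 ± 511 CPM in the second cluster, where it had 135 UMIs. Rod markers summed to 16866 to 39519 CPM in the first cluster and 63909 to 82717 CPM in the second, against 68191 to 83224 CPM in the rod region. Muscle markers summed to 32104 to 62887 CPM in the first cluster and 1052 to 2023 CPM in the second. Their part in these levels was not tested. Atp1b1 had 104.6, 138, 378 and 153 CPM over the whole muscle region, and fell by 1.72 ± 0.79 on the log2 scale against the neural mean (log2 fold -1.72, edgeR adjusted p = 0.000323). That call was lost with spots placed by their own markers (adjusted p = 0.553) or with 50 marker UMIs (adjusted p = 0.528). Atp1b1 in muscle spots also overlapped the 104.9 to 191 CPM of the rod region. The fold therefore does not set muscle spots apart from rod spots. Of the 5 genes tested, 3 passed, where 9.7% of all tested genes did.

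In order of mean level, Atp1b1 ran from ganglion (2567 ± 365 CPM) through bipolar (717 ± 278), pigmented (630.1 ± 207), muscle (193 ± 125) and rod (139 ± 36.4) to optic nerve (37.1 ± 32.1). The ranges of bipolar and pigmented spots overlapped, as did those of muscle and rod spots. Atp1b2 ran from rod (1787 ± 255 CPM) through optic nerve (1461 ± 127), muscle (1406 ± 241), bipolar (1302 ± 139) and pigmented (787 ± 148) to ganglion (319 ± 53.4). The first 4 of these overlapped from each to the next, while the pigmented and ganglion ranges stood apart. Of the 149 Atp1b2 UMIs in muscle spots, 135 came from the cluster of 67 spots with few muscle and many rod marker UMIs. The cluster with the higher muscle folds averaged 362 ± 311 CPM, so the place of muscle in this order is not settled. Atp1b3 ran from pigmented (242 ± 42.5 CPM) through optic nerve (92.6 ± 115), ganglion (39.7 ± 15.5), rod (32.8 ± 11.8) and bipolar (29.5 ± 43.6) to muscle (21.0 ± 42.0), and neighbours in this order overlapped. SDs are over 4 frames, or 3 for optic nerve. Outside the 6 regions, 363 clustered spots with Nefl and C1qb at the top, which mix inner retinal and immune markers, had 1232 ± 245 CPM of Atp1b1, 434 ± 131 CPM of Atp1b2 and 317 ± 81.9 CPM of Fxyd7 (n = 4 frames). High Atp1b2 beside low Atp1b1 was not limited to rod spots. Fibrous spots had 1714 ± 283 CPM of Atp1b2 and 213 ± 130 CPM of Atp1b1. Keratin-led epithelium spots had 1574 ± 505 and 182 ± 55.5 CPM (n = 4 frames each). Rod genes were among the leading markers of both, Prph2 in fibrous spots (fold 1.81) and Rp1 in epithelium spots (fold 1.43). The part of rod RNA in these levels was not tested.

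Among the FXYD genes, Fxyd7 was the one with its highest level in ganglion spots. It had 723, 571, 503 and 574 CPM in the ganglion region of frames 1 to 4, against 115, 103, 133 and 49.4 CPM in the bipolar region and 18.5, 12.3, 69.4 and 95.1 CPM in the rod region. Every ganglion value lay above every value of the other regions. Its log2 fold was 3.49 ± 0.96 over the rod region (edgeR adjusted p = 1.21e-11) and 2.48 ± 0.53 over the bipolar region (edgeR adjusted p = 4.88e-06), higher in 4 of 4 frames each. Without frame 4 the fold over the rod region was 4.22. The bipolar region did not pass against the rod region, with a log2 fold of 1.01 ± 1.16 (edgeR adjusted p = 0.140). Fxyd7 supplied 87.5% of the UMIs of the 3 FXYD genes in ganglion spots (exact binomial interval 83.1 to 91.2%, 246 of 281 UMIs). In pigmented spots Fxyd7 had 25.9 to 61.5 CPM, with a fitted log2 fold of -1.57 ± 0.19 against the neural mean (frames' own folds -1.28, -1.48, -1.22 and -1.02), lower in 4 of 4 frames (edgeR adjusted p = 0.00666). Without frame 2 that call was lost (adjusted p = 0.0632), and the fold was -2.18 with spots placed by their own markers, -3.36 at resolution 1 and -3.47 with the visual cycle cluster alone. Muscle spots held 3 UMIs of Fxyd7 against 309 in the neural regions pooled, a ratio of 0.125 (95% counting interval 0.0256 to 0.369). Their fitted log2 fold of -2.27 (edgeR adjusted p = 0.0392) did not pass with DESeq2 (adjusted p = 0.0959) or without frame 1, 2 or 4, with adjusted p-values of 0.0521 to 0.170, nor in the higher-fold muscle cluster alone (adjusted p = 0.356), with spots placed by their own markers (adjusted p = 0.366) or with 50 marker UMIs (adjusted p = 0.488). Pigmented spots, and muscle spots at 0 to 84.0 CPM, overlapped the 12.3 to 95.1 CPM of the rod region. Neither fold sets these spots apart from rod spots in Fxyd7.

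Fxyd1 was highest in optic nerve spots and lowest in rod spots. It had 2419, 776 and 335 CPM in the optic nerve region of frames 2 to 4, from 11, 14 and 6 UMIs. Each frame lay above the highest neural value, 199.9 CPM in the bipolar region of frame 1, and the 3 frames differed by a wide margin, with frame 2 the shallowest. The log2 fold over the neural mean was 3.92 ± 1.29, higher in 3 of 3 frames (edgeR adjusted p = 2.44e-10), with DESeq2 it was 4.49, with no filter on low counts 3.31 and with spots placed by their own markers 3.33. After taking off the median of all genes the edgeR and DESeq2 folds were 4.98 and 5.08. The ratio of pooled levels, 31 against 77 UMIs, was 13.5 (95% counting interval 8.59 to 20.7). Of the 5 genes tested, 2 passed for optic nerve spots, where 22.1% of all tested genes did. Fxyd1 supplied 75.6% of the FXYD UMIs there (exact binomial interval 59.7 to 87.6%, 31 of 41 UMIs).

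Within the retina Fxyd1 was highest in bipolar spots. It had 199.9, 154, 107 and 98.7 CPM in the bipolar region of frames 1 to 4, against 18.5, 12.3, 11.6 and 29.2 CPM in the rod region, with no overlap. The fitted log2 fold was 2.63 ± 0.54 over the rod region (frames' own folds 2.39, 2.28, 1.87 and 1.20), higher in 4 of 4 frames (edgeR adjusted p = 0.000176). It was 1.92 with spots placed by their own markers, and did not pass with 50 marker UMIs (adjusted p = 0.0617). Ganglion spots, at 44.5, 42.8, 43.7 and 20.9 CPM, were lower than bipolar spots in 4 of 4 frames (log2 fold -1.77 ± 0.32, edgeR adjusted p = 0.0175), a call lost without frame 1 or 2 (adjusted p = 0.121 and 0.108), with no filter on low counts (0.116) or at a cluster resolution of 1 (adjusted p = 0.0845). Against rod spots the ganglion fold of 0.87 ± 0.55 did not pass (edgeR adjusted p = 0.282). Markers of Müller glia, the supporting cells that span the retina, were summed in the same regions. Their sum was 2495 to 5497 CPM in optic nerve spots (5 of 8 markers detected), 2798 to 4059 CPM in bipolar spots (8 of 8) and 645 to 1241 CPM in ganglion spots (8 of 8), against 457 to 723 CPM in rod spots (8 of 8). It was 2005 to 3447 CPM in pigmented spots (8 of 8) and 345 to 672 CPM in muscle spots (6 of 8). Optic nerve and bipolar sums overlapped, and Fxyd1 averaged 1177 and 139.8 CPM there. Muscle and rod sums overlapped too, and Fxyd1 averaged 80.7 and 17.9 CPM there. Of these markers, Abca8a, Dapl1 and Rlbp1 were at 0 UMIs in optic nerve spots. Dapl1 was also among the leading markers of the melanin cluster (fold 20.4), so the sum does not measure Müller glia alone. The part of Müller glia in the Fxyd1 level was not tested.

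Fxyd1 was also higher in pigmented spots than the mean of the 3 neural regions, though not than bipolar spots. It had 188, 96.9, 137 and 92.3 CPM in the pigmented region, overlapping the 98.7 to 199.9 CPM of the bipolar region and above the rod and ganglion ranges. The fitted log2 fold over the neural mean was 1.54 ± 0.31 (frames' own folds 1.28, 0.67, 1.24 and 0.80), higher in 4 of 4 frames (edgeR adjusted p = 0.00209). With the visual cycle cluster alone it was 0.74 and did not pass (edgeR adjusted p = 0.399), nor did it at resolution 1 (adjusted p = 0.397) or with spots placed by their own markers (adjusted p = 0.650). The melanin cluster held 166 ± 73.6 CPM of Fxyd1 and the visual cycle cluster 83.0 ± 29.9 CPM (SD, n = 4 frames). In muscle, a tissue where Fxyd1 is well known, the whole region had 38.4 to 138 CPM and did not pass (log2 fold 0.87 ± 0.56, edgeR adjusted p = 0.409). All 9 of its Fxyd1 UMIs lay in the cluster with the higher muscle folds, at 288 ± 156 CPM there, while the other muscle cluster held 0. That cluster alone passed, with a log2 fold of 1.96 over the neural mean (edgeR adjusted p = 0.0481).

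Fxyd6 was scarce in all regions. It had 99.9, 34.2, 0 and 98.7 CPM in the bipolar region of frames 1 to 4 and 33.4, 42.8, 76.5 and 31.3 CPM in the ganglion region, against 0, 6.17, 17.3 and 0 CPM in the rod region. Every ganglion value lay above every rod value, while the bipolar region overlapped the rod region through frame 3. Pooled, 19 bipolar UMIs against 4 rod UMIs gave a ratio of 9.87 (95% counting interval 3.28 to 39.9), and 19 ganglion UMIs against 4 rod UMIs a ratio of 7.21 (2.40 to 29.1). In a fit with no filter on low counts both folds passed, at 2.71 for bipolar over rod spots (edgeR adjusted p = 0.0387) and 2.47 for ganglion over rod spots (edgeR adjusted p = 0.0282). In frame 1 of the bipolar region, 13 UMIs lay in 4.49% of 89 spots. The muscle region held 0 Fxyd6 UMIs of 105326, where 3 UMIs would be 28.5 CPM, and the ratio to the neural regions could be up to 1.18. Fxyd6 supplied 18.6% of the FXYD UMIs in bipolar spots, 14.3% in pigmented spots, 8.89% in rod spots, 6.76% in ganglion spots and 4.88% in optic nerve spots.

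In order of mean level, Fxyd7 ran from ganglion (593 ± 93.0 CPM) through optic nerve (148 ± 169), bipolar (100.1 ± 36.1), rod (48.8 ± 40.0) and pigmented (47.9 ± 17.0) to muscle (34.1 ± 41.4). Fxyd1 ran from optic nerve (1177 ± 1098 CPM) through bipolar (139.8 ± 46.9), pigmented (129 ± 44.3), muscle (80.7 ± 48.7) and ganglion (38.0 ± 11.4) to rod (17.9 ± 8.17). Below the highest region of each, neighbours in the order overlapped. Fxyd6 ran from bipolar (58.2 ± 49.5 CPM) through ganglion (46.0 ± 20.9), optic nerve (37.0 ± 64.0), pigmented (21.5 ± 19.3) and rod (5.88 ± 8.18) to muscle (0), and neighbours overlapped throughout.

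**Figure D5:**
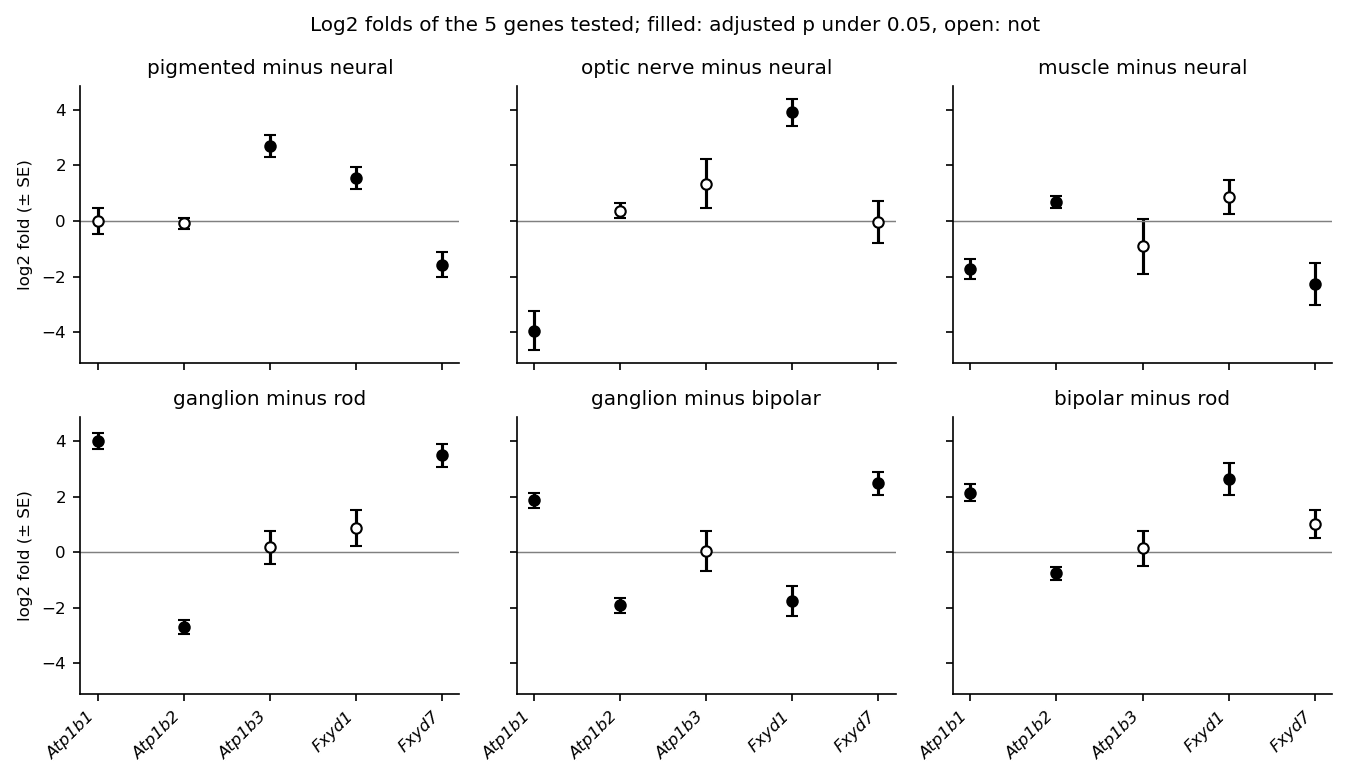
Log2 folds (vertical axis, ± SE) of the 5 genes tested in 6 comparisons of regions, with filled points for an adjusted p under 0.05. Atp1b1 is at 4.00 and Atp1b2 at -2.68 for ganglion against rod spots, and Fxyd1 is at 3.92 for optic nerve spots.

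Among further genes of the pump and its FXYD partners, Fxyd5 had 65 UMIs over all frames, Fxyd3 had 8 and Fxyd2 had 1. Atp1b4, a β subunit gene, and Fxyd4 had 0. None had enough counts to be tested.

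Ankyrins fix the pump and ion channels to the membrane skeleton. Ank3, the ankyrin at the start of axons, rose in ganglion spots (log2 fold 1.97 ± 0.16 over rod spots, higher in 4 of 4 frames, edgeR adjusted p = 3.71e-08). Ank2, another ankyrin, rose there as well (log2 fold 0.76 ± 0.24, higher in 4 of 4 frames, edgeR adjusted p = 0.0179). Pigmented spots were lower than the neural mean in Ank2 (log2 fold -1.21, lower in 4 of 4 frames, edgeR adjusted p = 0.000401) and Ank3 (log2 fold -1.18, lower in 3 of 4 frames, edgeR adjusted p = 0.00191).

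The pathways through which sodium enters were read as a list of 27, with 15 tested. For ganglion against rod spots 5 rose, 6 fell and 4 did not pass, with a median log2 fold of -0.58 against 0.02 over all tested genes, of which 42.9% passed (23% higher and 19.8% lower). The genes with the lowest p-values were those of the rod light response. Slc24a1, the exchanger that lets sodium in as it removes calcium from rod outer segments, had a log2 fold of -5.56 ± 0.41 (edgeR adjusted p = 1.08e-30). Cngb1, part of the channel that carries the dark current, had a log2 fold of -5.21 (edgeR adjusted p = 3.64e-18). Bipolar spots were lower than rod spots in Slc24a1 (log2 fold -2.20, edgeR adjusted p = 3.93e-12) and Cnga1 (log2 fold -2.51, edgeR adjusted p = 1.16e-07), and 2 of the 15 rose and 4 fell, where 14.6% of all tested genes were higher and 11.4% lower. In pigmented spots 3 rose and 1 fell, where 14% of all tested genes were higher and 7.37% lower. Those that rose included the bicarbonate carriers Slc4a5 (log2 fold 3.56, edgeR adjusted p = 6.84e-11) and Slc4a4 (log2 fold 3.78, edgeR adjusted p = 1.87e-06). Slc4a4 was also higher in optic nerve spots (log2 fold 4.57, edgeR adjusted p = 0.000269), in 2 of 3 frames.

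Genes for the return of potassium and for other ion pumps were read from lists of 10 and 16. Of the 5 potassium genes tested, 1 rose and 3 fell in ganglion against rod spots, with a median log2 fold of -3.55, beside the 23% of all tested genes that were higher and the 19.8% that were lower. The inward rectifier Kcnj14 had a log2 fold of -4.40 ± 1.07 (edgeR adjusted p = 1.51e-11). Of 9 other pumps tested, 1 rose and 2 fell in the same comparison, a smaller share than the 42.9% of all tested genes that passed. Atp2b2, a plasma membrane calcium pump, was higher in ganglion than rod spots (log2 fold 3.96 ± 0.66, edgeR adjusted p = 2.44e-13) and Atp2b1, a second pump of that family, lower (log2 fold -1.07, edgeR adjusted p = 0.00151). Atp2a1, the calcium pump of fast muscle, was the 1 pump of this list that rose in muscle spots (log2 fold 7.81, edgeR adjusted p = 4.57e-14). In pigmented spots Atp2b1 was lower in 3 of 4 frames (log2 fold -1.30, edgeR adjusted p = 0.000399), and Slc12a5, a neuronal potassium chloride exporter, was lower in 4 of 4 frames (log2 fold -1.51 ± 0.14, edgeR adjusted p = 0.00192). In optic nerve spots 3 of 5 potassium genes and 3 of 9 pumps fell, where 15.4% of all tested genes were lower and the median of all genes was -1.06.

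The genes whose levels ran most like each of the 6 were found by Pearson's r of log2 CPM over 23 sums of frame and region, among 1451 genes outside the markers. These sums share frames, depth and region makeup, so r is a description. Atp1b1 ran most like Nme7 (r = 0.92), Ywhab (0.92) and Pcp4 (0.91). Nme7 is the gene whose annotated end overlaps that of Atp1b1. It averaged 1905 ± 170 CPM in ganglion spots, 520 ± 189 CPM in bipolar spots and 69.2 ± 34.1 CPM in rod spots. For each 100 Atp1b1 UMIs there were 73.6, 74 and 50.6 Nme7 UMIs in these regions. Its log2 fold for ganglion over rod spots was 4.54 ± 0.43 (edgeR adjusted p = 7.47e-23), and the part that shared bases play in it was not tested. Pcp4, a calmodulin binding protein of neurons, had a log2 fold of 4.01 in the same comparison (edgeR adjusted p = 1.16e-16). Atp1b2 ran most like Tob2 (r = 0.80), Slc44a1 (0.79) and Cuedc1 (0.78), and opposite to Atp1b1 (r = -0.79). Atp1b3 had lower values, with Lgr4 (0.68), Cyba (0.68) and Ly6e (0.66). Fxyd1 ran most like Sparc (0.84), Cd81 (0.82) and Mt1 (0.79), and Fxyd7 like Ywhaq (0.86), Mapk10 (0.84) and Calb2 (0.84). For Fxyd6 the closest were Cntn1 (0.74), Sptbn1 (0.72) and Smarca2 (0.71), from 55 UMIs of Fxyd6 in these sums.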

How the data were processed

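The authors deposited UMI counts per spot and gene for spots over tissue, and the file headers name Space Ranger 2.0.0 as the software. The build was mm10, per the submitters' processing notes, and the alignment settings and annotation are not given in the sources. These counts were used as deposited. Spots with at least 20 UMIs of 148 marker genes were scaled to 10000, log-transformed, standardised (limit 10), reduced to 10 principal components and clustered (15 neighbours, Leiden resolution 0.6) with scanpy 1.11.5. Each cluster was named after the marker class with the most genes, and no fewer than 3, among its 10 top markers by fold. UMIs were summed per frame and region with at least 10 spots. One fit of edgeR 4.0.16 (quasi-likelihood, robust, TMM, filterByExpr minimum count 10, frame as block) covered 6 regions, with markers left out of library sizes and tests and Benjamini-Hochberg adjustment over 2959 genes at a limit of 0.05. Neural means the average of the rod, bipolar and ganglion regions on the log2 scale. Levels in CPM include marker UMIs in the total. Folds were also taken within each frame (prior count 2), and the ± beside a fold gives their SD. The fold itself is the fitted value, which is not the mean of the frames' folds and at times lies beyond all of them. Regions of a frame come from the same sections, and after region means were taken off their correlations with the rod or bipolar region of the same frame were -0.01 to 0.24. With frame as block, the edgeR p-values rest on the spread left within frames, pooled over the sums of all 6 regions and moderated across genes. They are not tests on 4 frame values alone. Regions were both defined and compared in the same spots.

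Named genes were the 6 genes, other genes of the pump, up to 2 genes per list and comparison with the lowest p among those that passed (Ank2 for ganglion against rod spots was named after its value was seen), and the 3 genes most alike each of the 6. Members, lists and tests were chosen with earlier results of these data known. Alternatives were DESeq2 1.42.0 and the settings given below, and the fit was tested on simulated data with known changes. Spots without enough markers and spot positions were not used here. Some genes that this rule names are not reported here.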

Additional observations from a re-analysis of the deposited data

Results flagged for a closer look

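Of 66 sets of 4 frames looked at (the level or share of a gene in a region or over whole frames), 4 held a frame far from the other 3 by Dixon's criterion, and chance alone gives about 1 in 20. Fxyd1 in ganglion spots stood at 20.9 CPM in frame 4, from 2 UMIs, below 42.8 to 44.5 CPM in the other frames. Atp1b3 in muscle spots stood at 84.0 CPM in frame 3, from 2 UMIs, with 0 in the other frames, and its share of β subunit UMIs there was 4.55% in frame 3. The Atp1b2 share in ganglion spots was 14.0% in frame 1, above 9.71 to 10.4% in the other frames.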

How the results depend on the processing

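Of 18 folds called for the 6 genes, 17 were called by DESeq2 too. Its size factors shifted the median of all genes by 0.17, 0.12, -0.05, -0.17, 0.47 and 0.07 on the log2 scale (bipolar and ganglion over rod, ganglion over bipolar, and pigmented, optic nerve and muscle over neural spots). With that median taken off, no called fold moved by more than 0.11. Over all settings the called folds were the same call in 187 cases, lost the call in 30 and turned sign in 3. Those 3 were Atp1b2 in muscle spots, at -0.57 with each spot placed by its own markers, -0.014 with at least 50 marker UMIs and -1.60 with the higher-fold muscle cluster alone.

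Folds that had not passed turned sign as follows. For Atp1b3 in bipolar over rod spots they were -0.028 with no filter and -0.94 to 0.59 without 1 frame, lowest without replicate 1. In ganglion over rod spots they were -0.068 with 10 marker UMIs and -0.13 to 0.54 without 1 frame, lowest without replicate 2, and in ganglion over bipolar spots -0.079 with no replicate block, -0.73 with 10 marker UMIs and -0.33 to 1.35 without 1 frame, below 0 without replicate 2 and, at -0.23, without replicate 3. In muscle spots Atp1b3 was at 1.54 with 50 marker UMIs and 0.069 with the higher-fold cluster. Fxyd1 in ganglion over rod spots was at -0.12 with 50 marker UMIs. In pigmented spots Atp1b1 was at 0.011 with no replicate block, 0.10 with 10 marker UMIs and -0.20 to 0.16 without 1 frame, above 0 without replicate 3 and, at 0.11, without replicate 2, and Atp1b2 at 0.27 at resolution 1, 0.40 with the visual cycle cluster and -0.24 to 0.0069 without 1 frame, above 0 without replicate 1. In optic nerve spots Atp1b2 was at -0.22 with no filter, and Fxyd7 at 0.28 with DESeq2, 0.11 with no replicate block, 0.28 at resolution 1, 0.53 with 10 marker UMIs and -1.18 to 0.51 without 1 frame, with 0.16, 0.51 and 0.45 without replicates 1, 2 and 4. The cause was not tested.

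Counts of genes called also moved. For bipolar against rod spots (770) the count was 459 with 50 marker UMIs and 364 to 763 without 1 frame, lowest without frame 2 and 399 without frame 1. For ganglion against rod spots (1268) it was 1905 with 10 marker UMIs. For ganglion against bipolar spots (379) it was 579 with 10 and 594 with 50 marker UMIs and 196 to 299 without 1 frame, lowest without frame 2. For pigmented spots (632) it was 420 by own markers, 313 at resolution 1 and 374 to 638 without 1 frame, with 374 without frame 1 and without frame 2. For optic nerve spots (655) it was 329 to 492 without 1 frame, with 360 without frame 2, 329 without frame 3 and 343 without frame 4. For muscle spots (287) it was 140 by own markers and 154 to 259 without 1 frame, with 175 without frame 1 and 154 without frame 2. With no replicate block the ganglion against rod count was 1246, and the block changed no call of the 6 genes. The share of calls that were higher was 56.1% with TMM and 67.2% with DESeq2 for bipolar against rod spots, 65.5% and 50.6% for pigmented, 30.2% and 64.8% for optic nerve and 57.5% and 70.6% for muscle spots.

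The Atp1b1 share of β subunit UMIs in ganglion spots (87.7%) was 85.4% by own markers, 83.0% at resolution 1, 84.3% with 10 marker UMIs and 81.6% with the Nefl and complement cluster added. In pigmented spots (37.5%) it was 28.0% at resolution 1 and 27.9% with the visual cycle cluster. In optic nerve spots (2.15%) it was 9.13% by own markers, and in muscle spots (11.8%) 33.2% by own markers, 27.1% with 50 marker UMIs and 41.6% with the higher-fold cluster. The Fxyd6 share in muscle spots (0%) was 10% with 10 and 4.76% with 50 marker UMIs. With 50 marker UMIs the pigmented region was not found and optic nerve spots were too few. The settings on single clusters and the Nefl cluster were chosen after seeing the data. Depth limits Fxyd6, Atp1b3 outside pigmented spots and every optic nerve value.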
